A study of Mus musculus with 78 samples.

Results

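Of the 24 4-cell mouse blastomeres in the deposited gene table, 3 had fewer than 5000 genes with an FPKM (fragments of a gene divided by its exon length and by the size of the library) above 1. They are called gene-poor here, under their column names S18, S20 and S24, and are set against the 21 other blastomeres. The 2 gene tables hold 50 columns, 24 from 4-cell and 26 from 8-cell embryos, while the labels list 78 single blastomeres, 5-cell and 6-cell embryos included, and samples without a column were not analysed here. The embryos came from a cross of mice with the CAG-Brainbow2.1 cassette at the Gt(ROSA)26Sor locus (the tm1 allele, Cle/J stock) and Tg(CAG-cre/Esr1*)5Amc/J mice, so each embryo carried a single copy of the colour construct and of a ubiquitously driven, tamoxifen-inducible Cre. All embryos, those of the other blastomeres included, were exposed to 4-Hydroxytamoxifen at the 2-cell stage and grown in KSOM medium, and no untreated embryo is part of the comparison. Each blastomere was lysed and made into a full-length cDNA library on its own. The column names match no sample label, so S18, S20 and S24 were assigned to no embryo, lineage or colour here, and they may share an embryo.

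The mouse 4-cell stage follows the handover from oocyte to embryo. The egg stores long-lived maternal mRNA, much of it with a short poly(A) tail, and most of it is degraded around the 2-cell stage while the embryonic genome starts transcription. A 4-cell blastomere therefore holds new embryonic transcripts for ribosomes, mitochondria and metabolism next to a remainder of maternal messages. It also holds transcripts of retrotransposons such as MERVL, whose transcription marks the 2-cell stage.

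The number of genes above FPKM 1 chose the blastomeres and is given only as a description. It was 3009 in S18, 3699 in S20 and 4939 in S24. The nearest blastomere outside the limit was S21 with 5336 genes, then S19 with 6319, and the median of the 21 others was 7203, with 8276 in S1 as the highest. The limit thus separates S24 from S21 by a much smaller step than it separates S18 and S20 from the rest.

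Sequencing depth did not order the blastomeres in the same way. Low FPKM values are multiples of the value of 1 fragment, which gave an estimated 9.66 M (mega) fragments for S18, 13.3 M for S20 and 9.86 M for S24, against 6.87 to 16.9 M in the others. S23 and S22, the shallowest of all with 6.87 and 7.82 M fragments, still had 7131 and 6840 genes above FPKM 1. For an exon length at the median of the listed genes, about 27.3 fragments in S18, 37.6 in S20 and 27.9 in S24 gave an FPKM of 1. In S18 75.2% and in S20 81.6% of the estimated fragments lay on listed genes, below the 85.8% to 95.1% of the others, whereas S24 with 91.0% was inside that range. The part of these shares in the losses was not tested. The paper also gives the share of reads on the mitochondrial genome for each blastomere. At this stage it was far higher in a pair from the same embryo than in the others of resolved lineage. These blastomeres were matched to no column here, so the part of that share in the losses was not tested either. The deposited FPKM values summed to 266873 in S18 and 309126 in S20, below the 377758 to 494910 of the others, and to 469141 in S24. Every value below was therefore scaled to the same sum per blastomere and is called scaled FPKM. All 15218 genes in the table have a value above 0 somewhere, which for 233 genes was in gene-poor blastomeres only, so the listing itself can favour genes that are high there. No test was run, because the values that formed the groups are the values compared, and ranges over the blastomeres are given instead.

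**Figure D1:**
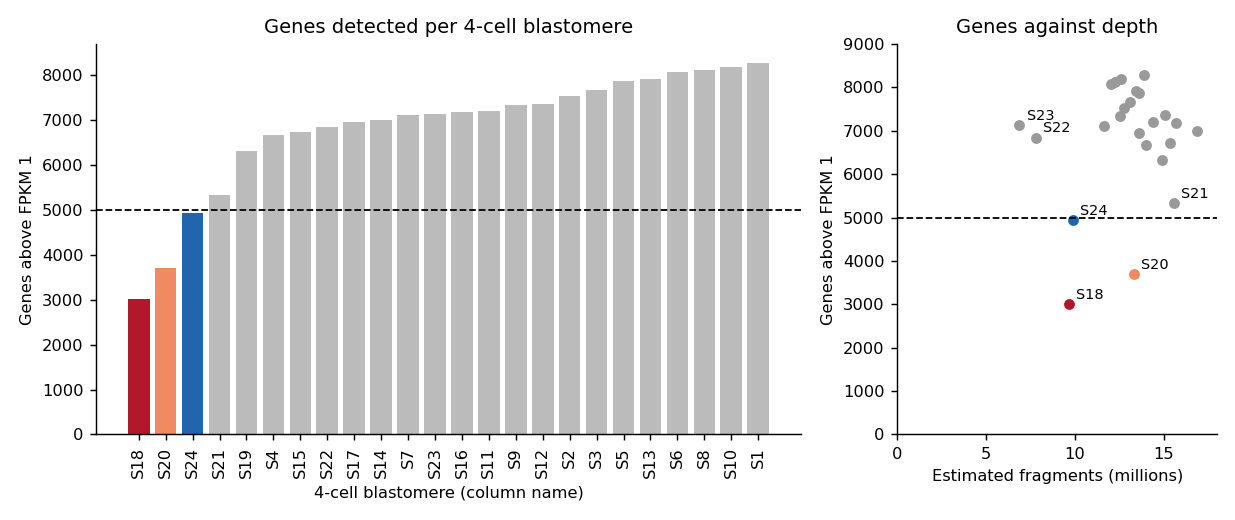
Left, bars give the number of genes above FPKM 1 in each of the 24 4-cell blastomeres, with the limit of 5000 genes dashed; S18, S20 and S24 fall below it. Right, each point is a blastomere, with its estimated number of fragments (M) against the same number of genes; S23 and S22 lie at fewer fragments than any gene-poor blastomere but at 7131 and 6840 genes.

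The label was checked against markers fixed for blastomeres and for other cells that could be carried along. Dppa3, a maternal and early embryonic chromatin protein and the most abundant of the fixed blastomere markers, stood at a scaled FPKM of 2158 in S18, 2749 in S20 and 4617 in S24, against 2832 to 4543 in the others. Of the 8 blastomere and oocyte markers fixed for the check, 3, 3 and 5 were above a scaled FPKM of 1 in S18, S20 and S24. Each of the 8 was above 1 in more of the 21 others than not, from 11 for Ooep to all 21 for Zp3, Padi6 and Dppa3. The fixed markers of granulosa cells, sperm and blood that the table lists (3, 2 and 1 genes) were at 0 in every gene-poor blastomere. No fibroblast or skin marker of that set is listed. Of a broader list of granulosa genes, the aromatase gene Cyp19a1 stood at 5.07 in S18 and at 0 in S20 and S24, against 0 to 2.08 in the others. Of a broader list of 6 sperm and spermatid genes, 1 was above 1 in S24, at 21.9, and 0 in S18 and S20. That list summed to 0 to 55.4 in the others. The 7 listed Y-linked genes summed to at most 0.0610 in the 3 gene-poor blastomeres and to at most 1 in 9 of the others, while the other 12 had a median of 56.9.

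The loss was measured on 2714 core genes, those above a scaled FPKM of 1 in each of the 21 other blastomeres. A core gene is called lost in a gene-poor blastomere when it is listed there at a scaled FPKM of 1 or less. S18 had lost 1026 core genes (37.8%), S20 682 (25.1%) and S24 221 (8.14%), and 732, 462 and 134 of these were listed at exactly 0. Because a core gene is high in the others by definition, any blastomere held out of that definition can only lose genes: with each other blastomere held out in turn, 3 to 93 genes were lost, with a median of 20, and S21 with 273 was the exception. On the 2987 genes that are core without S21, S24 lost 301 and S21 273, so the 5000-gene limit falls between blastomeres with losses of similar number.

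The core genes were also classed by their ratio to the median of the others. In S18, 735 core genes (27.1%) stayed within 2-fold of the median of the others, 274 (10.1%) were below that but not lost, and 679 (25%) were over 2-fold above. In S20 the same classes held 1065 (39.2%), 337 (12.4%) and 630 (23.2%) genes. S24 kept 1828 core genes (67.4%) within 2-fold and had 232 (8.55%) over 2-fold above, with 433 (16%) reduced but not lost. Scaling multiplied S18 by 1.66 and S20 by 1.43, and without it 382, 379 and 271 core genes in S18, S20 and S24 were over 2-fold above. Over all 3, 35 core genes (1.29%) were over 2-fold above the median in each. The median log2 ratio of the core genes was −0.72 in S18, −0.21 in S20 and −0.07 in S24, and the values of lists below are to be read against that shift.

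Loss was frequent even among abundant messages in S18. In the quintile of core genes with the highest level in the others, above a scaled FPKM of 167, S18 lost 18.6% of the genes, S20 6.63% and S24 0.368%. In the quintile with the lowest level the shares were 43.1%, 35.2% and 21%. S18 lost the most genes, 48.4%, in the second lowest quintile of level, so that its loss followed abundance only loosely, while in S24 the share dropped with every step up in level. Slc25a4, the ADP/ATP carrier of the inner mitochondrial membrane, shows the pattern, with a scaled FPKM of 0 in S18 and in S20, 55.6 in S24 and 17.9 to 1037 in the others around a median of 398.

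Gene length divided the gene-poor blastomeres. Of the shortest quintile of core genes, with up to 1271 bases of exon, S18 lost 48.3% and S20 29.8%, but S24 3.31%. Of the longest quintile S18 lost 23% and S20 19.2%, and S24 15.5%. The lost share was thus lowest for the longest genes in S18 and S20, with S20 highest in the second shortest quintile (31.8%), and was highest for the longest genes in S24. In S18 and S20 the trend also held at a given level: in the middle quintile of level, S18 lost 66.7% of the 93 short genes and 14.8% of the 81 long ones, and S20 53.8% and 11.1%. In S24 it did not: the shares were 6.45% and 3.70% in that quintile, 8.06% and 7.21% in the second lowest, and 16.7% and 24.8% in the lowest, which holds 294 of the longest genes. The Spearman correlation of log2 ratio with exon length across core genes was 0.39 in S18, 0.35 in S20 and −0.13 in S24, and in the others it ran from −0.40 in S7 to 0.32 in S19, so only S18 and S20 lay outside that range. The points of each correlation are genes of a single library and are not independent. By GC content, the lost share went from 28.9% in the lowest to 49.7% in the highest quintile in S18. It went from 17.9% to 30.4% in S20, and from 7.18% to 9.02% in S24. The Spearman correlation of log2 ratio with GC content was −0.20 in S18 and −0.15 in S20, inside the −0.26 to 0.13 of the others. Median exon length also fell, from 3533 bases in the lowest GC quintile to 1579 in the highest.

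**Figure D2:**
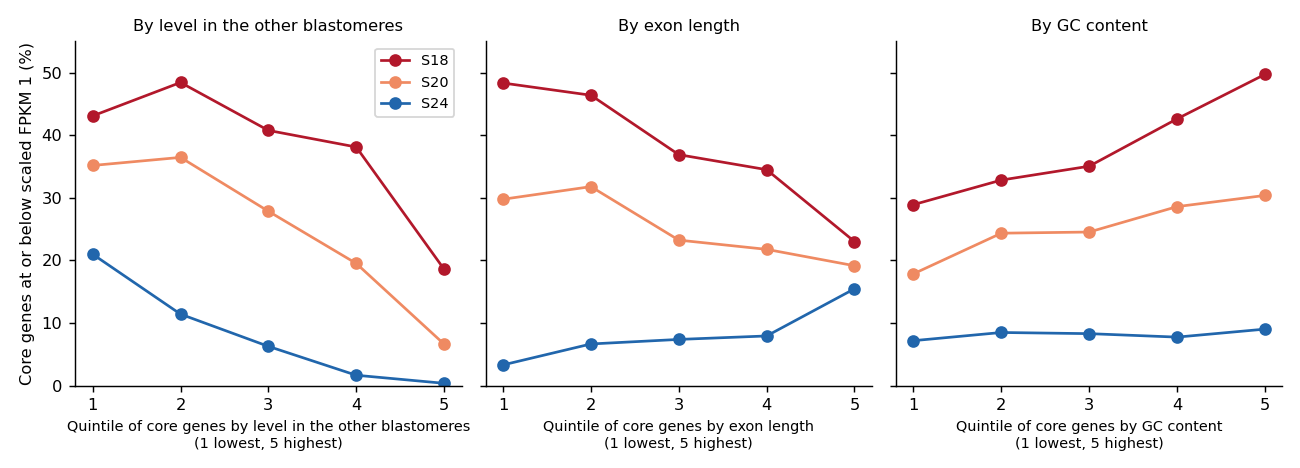
Percentage of core genes at or below a scaled FPKM of 1 in S18, S20 and S24, for quintiles of the 2714 core genes by level in the other blastomeres, exon length and GC content. The longest quintile has the lowest share in S18 and S20 and the highest in S24.

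Among lists with over 30 core genes, the nuclear-encoded transcripts of mitochondria had the highest lost shares in S18 and S20. Of 55 core genes of the respiratory chain, which encode subunits of the complexes that pass electrons and make ATP, S18 had lost 32 (58.2%), S20 19 (34.5%) and S24 0, where 37.8%, 25.1% and 8.14% of all core genes were lost. Summed over all 82 listed members, without the core filter, the scaled FPKM was 4387 in S18 and 5807 in S20, below the 7710 to 16120 of the others, and 11856 in S24 near their median of 12489. Atp5o, a stalk subunit of ATP synthase, stood at 0 in S18 and 0.140 in S20, against 202 in S24 and 168 to 478 in the others. Cox4i1, a subunit of cytochrome c oxidase, stood at 6.46 in S18 but at 271 in S20 and 446 in S24, with 337 to 659 in the others. Not every member was low: Ndufb9, a subunit of complex I, stood at 170 in S18 and 201 in S20 against 15.8 to 180 in the others, and Cox7a2l was at 332 in S18, at 0.0937 in S20 and at 211 in S24 against 39.9 to 320.

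The proteins of the mitochondrial ribosome followed the same course. Of 53 core members S18 had lost 33, S20 22 and S24 3, and the sum over all 78 members was 2879 in S18, 3041 in S20 and 7245 in S24, against 5207 to 8408 in the others. Mrpl12 and Mrpl58 were at 0 in S18 and in S20, with medians of 214 and 150 in the others, and stood at 163 and 221 in S24. Mrpl43 and Mrps30 were not lost in any of the 3 and lay between 114 and 163. Most of these genes are short, so they were set beside other short genes. Among core genes of the shortest quintile and of middle level (a median of 25.5 to 167 in the others), S18 lost 29 of the 44 genes of both mitochondrial lists (65.9%) and 153 of the 232 genes outside the mitochondrial and ribosomal protein lists (65.9%). S20 lost 22 (50%) and 99 (42.7%) of these genes, and S24 1 (2.27%) and 12 (5.17%). The part of gene length in the loss of the mitochondrial groups was not tested.

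Cytoplasmic ribosomal protein genes, with a median exon length of 765.5 bases over the core members against 763 for the respiratory chain and 1130 for the mitochondrial ribosome, were lost less often. Of 78 core members S18 had lost 12, S20 5 and S24 0, and 32, 52 and 78 were within 2-fold of the median. Of all core genes, 37.8%, 25.1% and 8.14% were lost and 27.1%, 39.2% and 67.4% were within 2-fold. The lost shares of the ribosomal protein genes, 15.4% and 6.41% in S18 and S20, lay near the 18.6% and 6.63% of the most abundant quintile. Their summed scaled FPKM was 20380 in S18 and 26844 in S20, below the 31164 to 55533 of the others, and 41943 in S24. Rpl41 was at 1289, 2055 and 3183 in S18, S20 and S24 against a median of 2537, and Rps3 was above the others in S18 and S20 with 920 and 613, against at most 495. Rpl12 was listed at 0 in S18 and 0.680 in S20, against 64.1 to 345 in the others. Ribosomal protein genes have many near-identical pseudogene copies, so uniquely aligned reads may undercount single members.

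Of other housekeeping groups, the proteasome differed between S18 and S20 after scaling, while the tubulin and actin and the spliceosome lists were low in both. Of the 36 core genes of the proteasome, the cell's main protease, S18 had lost 17 (47.2%, against 37.8% of all core genes), S20 4 (11.1%, against 25.1%) and S24 0, and the sum of 4816 in S18 was below the 7783 to 11676 of the others, whereas 8366 in S20 and 10882 in S24 were not, although without scaling S20 was below as well. Psmb2, a catalytic-core subunit, stood at 15.5 in S18, 463 in S20 and 819 in S24 around a median of 535. Ube2c, the ubiquitin-conjugating enzyme that serves the anaphase promoting complex, was at 0 in S18, 387 in S20 and 626 in S24, with a median of 639. Tubulin and actin genes summed to 1719 in S18 and 2089 in S20, below the 2168 to 3792 of the others. Spliceosome and SR protein genes summed to 4792 and 4379, below 5353 to 7118, although only 26.8% and 14.6% of their 41 core genes were lost. S24 was inside the range of the others for both lists, with 2842 and 6278.

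The list of pluripotency transcription factors, which also holds Dppa3 and the RNA-binding protein gene Dppa5a, differed member by member. Its sum was 4789 in S18 and 5141 in S20, below the 5465 to 7932 of the others, and 7521 in S24. Dppa3 alone made up 2158, 2749 and 4617 of the sums in S18, S20 and S24, against 2832 to 4543 in the others. The sum without Dppa3 and Dppa5a was not examined. Dppa5a, an RNA-binding protein of pluripotent cells, was among the low members, with 233 in S18 and 88.7 in S20 against 676 to 1692 in the others and 1041 in S24. Klf17, a Krüppel-like factor of the early embryo, went the other way with 1040 and 1054 against 183 to 772, and 238 in S24. Pou5f1, which encodes Oct4, was listed at 0 in S18, 86.5 in S20 and 0.132 in S24, and 20 of the 21 others had it above 1. Nanog was at 0.0445 in S18, 0.0558 in S20 and 5.67 in S24, with a median of 22.7.

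A set of abundant transcripts stayed at full level in every gene-poor blastomere. In all, 336 core genes (12.4%) were within 2-fold of the median of the others in S18, S20 and S24 together. The most abundant of them, chosen by level after the values were known, included Dppa3 and Rpl41, given above, and the single genes that follow. H3f3b, which encodes the replication-independent histone H3.3, stood at 1993, 1748 and 2153 against 936 to 2142 in the others. Ccnb1, the cyclin of mitotic entry, was at 1176, 1458 and 1775 against 1020 to 1776. Npm1, a nucleolar chaperone, was at 1308, 1103 and 1817 against 960 to 1704. Map1lc3b, a coat protein of autophagosomes, was at 1184, 1617 and 1630 against 932 to 1570, and Fbxo15, an embryonic F-box gene, at 664, 962 and 814 against 672 to 2173. Fbxo15 in S18, Map1lc3b in S20 and S24, and H3f3b, Npm1 and Dppa3 in S24 lay just outside the range of the others, and Dppa3 and Rpl41 in S18 and Dppa3 in S20 lay below it.

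Of the 44 gene lists examined, 13 had sums inside the range of the others in each of the 3, 4 of which mark other cell types. Without scaling 8 of the 13 stayed inside it, and RNA polymerase II, Rab and Obox genes were among those that did not. Chaperones summed to 9818 in S18, 9782 in S20 and 8241 in S24 against 7305 to 10490 (below the others in S18 and S20 without scaling). Genes of the 2-cell transcription burst summed to 2169, 2314 and 1242 against 971 to 2950. Fbxo15, given above, is part of that burst sum. Of the 27 burst genes 8, 6 and 5 were above a scaled FPKM of 1, against 5 to 13 in the others. Direct targets of p53 summed to 573, 539 and 617 against 375 to 959, with S18 below the others without scaling. No stress list stood above the range in any of the 3. The oxidative stress list was below it in S18 and S20, with 1907 and 1692 against 2062 to 4299, and the integrated stress response list in S18, with 979 against 1109 to 2083. Immediate early genes were below it in S18, with 8.32 against 19.9 to 193, and the apoptosis list in S20, with 297 against 350 to 633. Without scaling, the integrated stress response list was below the others in S20 too, and the apoptosis list in S18 too. Of single stress genes, Atf4, the transcription factor of the integrated stress response, was above the others in S18 and S20. It stood there at 210 and 293 against at most 187, and at 44.3 in S24. Mcl1, an anti-apoptotic Bcl2 protein, was at 356 in S18, 124 in S20 and 68.1 in S24 against 24.3 to 158.

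**Figure D3:**
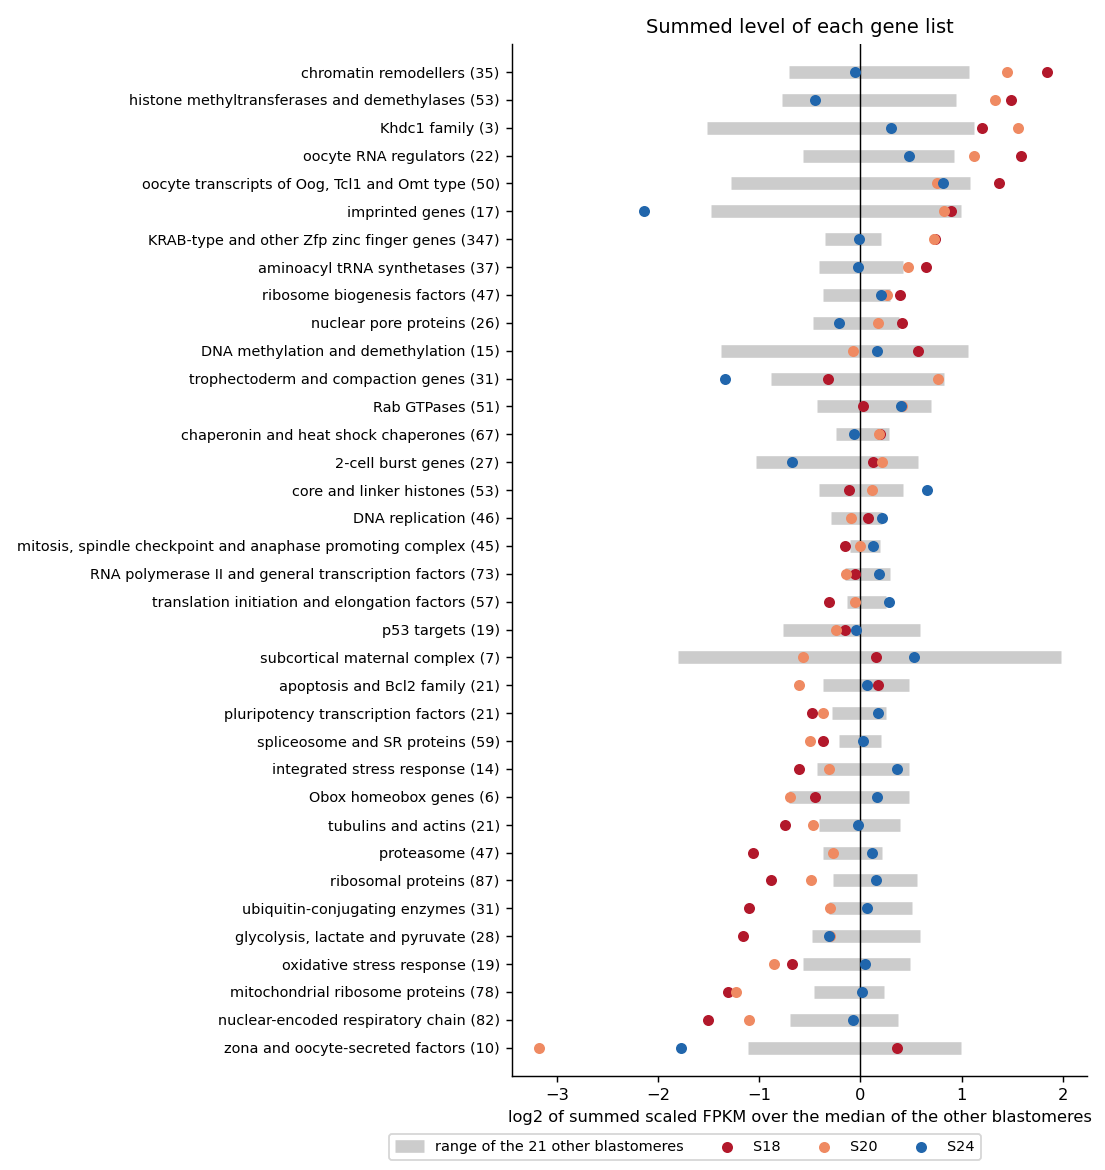
Summed scaled FPKM of each gene list (number of listed genes in brackets) in S18, S20 and S24, as log2 ratio to the median of the 21 other blastomeres; grey bars span the others. The 36 lists with a sum above 30 in every other blastomere are drawn. After scaling to equal sums, mitochondrial and ribosomal protein lists lie left of the bars in S18 and S20, the chromatin remodeller, histone methylation and oocyte RNA regulator lists right of them, and S24 lies inside most bars.

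Only 17 of the 15218 listed genes (0.112%) were higher in all 3 gene-poor blastomeres than in each of the others. A further 150 (0.986%) were lower in all 3. Of these, 13 and 106 were core genes (0.479% and 3.91% of the core genes). With S21 left out of the others, 26 genes were higher in all 3. Of the gene lists, those of RNA polymerase II and general factors, the proteasome, chromatin remodellers, DNA replication and Rab GTPases each held 1 of the 17 genes. Rbm25, a splicing regulator, stood at 361 in S18, 246 in S20 and 161 in S24 against 16.8 to 120. Hnrnpr, an hnRNP protein, was at 33.6, 24.2 and 24.9 against 1.38 to 20.9, and Luc7l, a splicing factor of the U1 snRNP, at 145, 61.8 and 72.0 against 12.9 to 60.4. Taf7, a subunit of the general factor TFIID, was at 160, 178 and 167 against 36 to 134, and the endosomal GTPase gene Rab5a at 185, 149 and 112 against 9.40 to 94.4. Among genes that are not core, Utp14a, a nucleolar processing factor, stood at 133, 105 and 86.7 against 0 to 52.7, and Smarca2, an ATPase of SWI/SNF remodelling complexes, at 23.4, 17.6 and 20.9 against 0 to 10.4. Luc7l and Hnrnpr in S20 exceeded the highest other blastomere by little.

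Of the core genes over 2-fold above the median, S18 and S20 shared 335, which is 49.3% of those in S18 and 53.2% of those in S20. S24 shared 69 of its 232 with S18 (29.7%) and 74 with S20 (31.9%). Of all core genes, 25% in S18 and 23.2% in S20 were over 2-fold above. Taken as a pair, a choice made after the values were known, S18 and S20 were both above every other blastomere for 475 listed genes (3.12%). Both were below every other for 819 (5.38%). Core genes made up 245 and 634 of these (9.03% and 23.4% of all core genes). For comparison, S18 alone was above every other blastomere for 11.1% of the listed genes, S20 for 9.58% and S24 for 4.63%, and below every other for 10.8%, 8.31% and 4.28%. Of the 475 genes 97.5% are protein-coding, as are 92.2% of all listed genes, and 6 are among the 93 small nucleolar RNA genes.

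Of the 113 genes on 6 oocyte and maternal lists, 10 (8.85%) were among them, beside 3.12% of all listed genes. These were 4 of 14 F-box genes of the Fbxw13 to Fbxw28 cluster, 3 of 22 oocyte RNA regulators, 2 of 50 genes of the Oog, Tcl1 and Omt list and 1 of 10 Nlrp genes, with 0 of 7 genes of the subcortical maternal complex and 0 of 10 zona and oocyte-secreted factors. The RNA regulator list also holds genes of general mRNA decay, and Ythdf2 and Dis3, which are among its 3 genes here, are of that kind. The share without such genes was not examined. The Oog, Tcl1 and Omt list summed to 3584 in S18, above the 569 to 2948 of the others (inside that range without scaling), and to 2343 in S20 and 2439 in S24, inside it. Oog3, an oocyte-specific leucine-rich repeat gene, stood at 1193 in S18 and 956 in S20 against 10.5 to 332 in the others, and at 126 in S24. The F-box genes Fbxw13 to Fbxw28, a cluster transcribed in oocytes, summed to 1104 in S18 and 887 in S20 against 0 to 215, and to 67.3 in S24. Within that cluster Fbxw24 was at 543 and 467 against 0 to 98.4, Fbxw16 at 214 and 150 against 0 to 39.8, and Fbxw15 at 0 in all 3 against 0 to 79.3. The sum of the cluster was thus high in S18 and S20, but not each of its genes. Only 5 of the 14 were above 1 in S18 and 5 in S20, against 0 to 10 in the others with a median of 7. Other oocyte Nlrp genes summed to 232 and 163 against 11.8 to 69.6. Nlrp4a accounted for 162 of that sum in S18 and was at 0 in S20, where Nlrp4f stood at 82.3 and was at 0 in S18. These families have near-identical members, so single members are uncertain.

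The list of oocyte RNA regulators summed to 1638 in S18 and 1184 in S20 against 369 to 1034 in the others, with 761 in S24, and S20 was inside the range without scaling. Ythdf2, a reader of methylated mRNA that promotes its decay, was at 514 and 376 against 70.2 to 329, and the exosome nuclease gene Dis3 at 172 and 154 against 4.39 to 61.5. Cpeb1, which binds the cytoplasmic polyadenylation element of stored mRNA, stood at 23.4 and 18.8 against 0 to 6.99. Btg4, an adaptor for deadenylation of maternal mRNA, was at 157 in S18 but at 0 in S20 and S24, against 0 to 68.9.

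Not every oocyte message was high. Zp3, which encodes a protein of the zona pellucida, was at 0 in S18, 0.0819 in S20 and 32.6 in S24 against 28.1 to 182. Gdf9, a growth factor secreted by the oocyte, stood at 147 in S18, 0 in S20 and 0.0528 in S24 against 0 to 25.3. Padi6, of the subcortical maternal complex, was at 178 in S18 and 69.7 in S24, both above the 2.25 to 66 of the others, and at 0 in S20. Nlrp5, also of that complex, was at 0 in S18, 44.5 in S20 and 17.3 in S24 against 0 to 18.4. Khdc1b stood at 284 and 362 in S18 and S20 against 14.2 to 229, while its neighbour in the same family, Khdc1a, was at 0.0879 and 0.275 against 9.999 to 63.1.

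Both lists of chromatin-modifying enzymes were above the range in S18 and S20, while histones (below it in S18 without scaling) and DNA methylation genes were within it. The histone sum includes H3f3b, given above. The median log2 ratio of the 7 core histone genes was −0.99 in S18 and 0.02 in S20. Transcripts of both enzyme lists are long, with a median of 6113 and 5511 bases of exon. In the longest quintile of all core genes 48.1% were over 2-fold above in S18 and 43.1% in S20. Of the 9 core remodellers 5 and 4 were over 2-fold above, and the part of length in the level of these lists was not tested. Chromatin remodeller genes summed to 1407 in S18 and 1066 in S20 against 240 to 826 in the others, and to 376 in S24, but the median log2 ratio of their 9 core members was 2.02 in S18 and 0.01 in S20, and Smarca4 and Smarca5 made up much of both sums. Smarca4, the Brg1 ATPase, was at 283 and 143 against 12.1 to 71.7, and Smarca5, the ATPase of ISWI complexes, at 324 and 334 against 23.3 to 176. Smarcb1, a short core subunit of the same SWI/SNF complexes, was at 0 in both against 9.84 to 78.2. Histone methyltransferase and demethylase genes summed to 1259 and 1123 against 259 to 857 (S18 was inside the range without scaling), and Kmt2c, an H3K4 methyltransferase, stood at 49.3 and 116 against 2.48 to 29.5. The 347 Zfp zinc finger genes summed to 5311 and 5296 against 2499 to 3676 (S18 was inside the range without scaling), but only 51 and 70 of them were above 1, against 83 to 175 in the others. Aminoacyl tRNA synthetase genes, which charge tRNA, summed to 2305 and 2031 against 1108 to 1966, inside the range under both other scalings, and none of the 37 was above every other blastomere in both. Bdp1, a subunit of RNA polymerase III factor TFIIIB, had the highest log2 ratio of the core genes in this pair, with 196 and 169 against 2.96 to 28.6, and was at 0 in S24.

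Small nucleolar RNA genes, which guide the modification of ribosomal RNA and lie in introns of host genes, summed to 3992 in S18, 1377 in S20 and 239 in S24 against 128 to 1747 in the others. Snora47 stood at 573 and 291 against 0 to 246. These genes are shorter than a sequenced fragment, and reads from unspliced host transcripts cannot be told from them, so their values are uncertain.

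The 3′ ends of lost and raised genes were compared next. Cytoplasmic polyadenylation of stored mRNA uses the element TTTTAT close to the poly(A) signal AATAAA, and both were searched on the transcript strand in the last 100 bases of the longest curated RefSeq transcript (GRCm38.p6). TTTTAT was found in 18.9% of the 244 protein-coding core genes above every other blastomere in S18 and S20, in 14.9% of the 429 lost in both, in 15.5% of all core genes and in 14.4% of all listed protein-coding genes. AATAAA was found in 79.1%, 71.6%, 70.6% and 66.9%. The raised genes had a median exon length of 3744.5 bases and the lost ones 1829, with 13 and 7 exons. The 30-base windows below lie in the last exon of 3 raised and of 3 lost genes that hold both motifs, which are in capitals. They are shown because the pair of motifs occurs in raised and in lost messages, and a match is a description of the letters only.
Bdp1 (raised, chr13:100017994-100018023, minus strand): ttatgtaAATAAAagttaTTTTATaccatt
Oog3 (raised, chr4:144157558-144157587, minus strand): atAATAAAtgtgttaactttgTTTTATttt
Casp8ap2 (raised, chr4:32653239-32653268, plus strand): atAATAAAaacatgaagtcctgTTTTATtt
Orc6 (lost, chr8:85308250-85308279, plus strand): caagcccAATAAAtgttatTTTTATatgca
Fkbp1a (lost, chr2:151561644-151561673, plus strand): ttcaagTTTTATtattgcAATAAAagtgct
Casp6 (lost, chr3:129914083-129914112, plus strand): acAATAAAcctttcagaattaTTTTATggc

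Casp8ap2, a nuclear protein tied to histone gene expression, stood at 224 in S18 and 236 in S20 against 16.9 to 73.0, and Orc6, a subunit of the origin recognition complex, at 0.208 and 0 against 103 to 340. Orc1, the largest subunit of that complex, went the other way with 236 and 241 against 1.60 to 122.

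Retrotransposons were measured in the same libraries, in a table that the gene count did not use. The repeat table gives a value for each of 278683 repeat copies. Fewer copies had a signal above 0 in S18 (26703), S20 (22238) and S24 (28380) than in any other blastomere (30687 to 56875). Within that smaller total, copies of MERVL and its promoter MT2_Mm made up 7.85% in S18 and 8.77% in S20, against 1.75% to 4.82% in the others and 2.14% in S24. As plain numbers these were 2096 and 1951 copies against 725 to 1789, and 608 in S24. The share of MT-type MaLR copies, a class of oocyte-active long terminal repeats, was 14.6% and 14.1% against 3.78% to 9.70%, with 3.13% in S24. In number of copies S18 was above the others with 3887 and S20 inside their range, with 3146 against 1345 to 3469. ORR1 and IAP elements, also with long terminal repeats, had shares of 8.33% and 6.84% against 2.60% to 4.87%, and of 6.49% and 7.64% against 1.56% to 5.50%. By number of copies ORR1 was above the others in S18 (2224) and inside their range in S20 (1520 against 1060 to 1996), and IAP was at 1733 and 1700 against 575 to 1699. In S24 the IAP share, 1.06%, was below the range.

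Short interspersed elements had a different distribution. B1 copies made up 8.31% in S18 and 8.96% in S20 against 12.1% to 18.8%, and 16.8% in S24. B2 and B3 copies made up 46.6% of the copies with signal in S24, above the 18.5% to 35.5% of the others, and 17.8% in S18 and 22.1% in S20. In number, the 13227 B2 and B3 copies of S24 were inside the range of 6749 to 16225. As a share of summed values in place of copies, B1 was inside the range of the others in S18 (8.19% against 7.38% to 9.81%) and MERVL inside it in S20 (0.291% against 0.129% to 0.299%), while ORR1 and IAP stayed above it in both. Repeats within introns or 3′ ends of genes share reads with these genes, so copies and host genes cannot be told apart here.

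**Figure D4:**
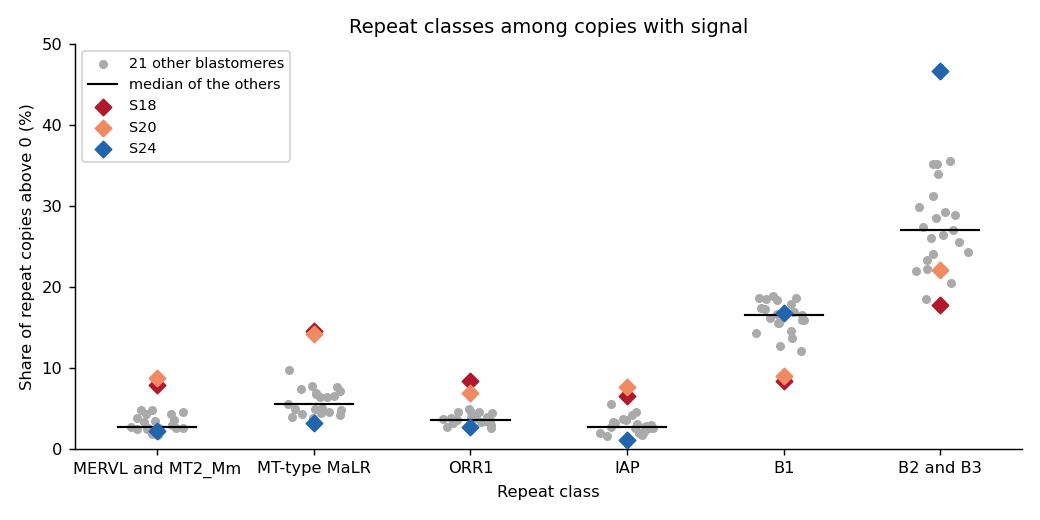
Share of each repeat class among the repeat copies with a value above 0, in percent, for the 21 other blastomeres (grey points, black line at their median) and for S18, S20 and S24 (diamonds). S18 and S20 lie above the others for MERVL, MT-type MaLR, ORR1 and IAP, and S24 for B2 and B3.

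The gene-poor blastomeres did not all lose the same genes. Of the 2714 core genes, 52 (1.92%) were lost in all 3 and 1356 (50%) in none. With S21 left out of the others, 81 genes were lost in all 3. S18 and S20 shared 435 lost genes (16% of the core genes), which is 63.8% of those lost in S20 and 42.4% of those lost in S18. Read against the core genes as a whole, where S18 lost 37.8% and S20 25.1%, both shares were higher. S24 shared 106 genes with S18 and 82 with S20, 48% and 37.1% of its own losses. With S24 the excess varied by quintile of level: in the lowest, which holds 114 of its 221 losses, 46.5% of them were lost in S18, where the share of all genes of that level was 43.1%, and 35.1% in S20, where it was 35.2%. In the second lowest, with 62 losses, 51.6% were lost in S18 against 48.4%, and 46.8% in S20 against 36.5%, and in the third, with 34, 41.2% against 40.8% and 35.3% against 27.9%. For S18 and S20 the excess remained in each quintile, for example 66% of the S20 losses against 38.1% in the second highest.

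**Figure D5:**
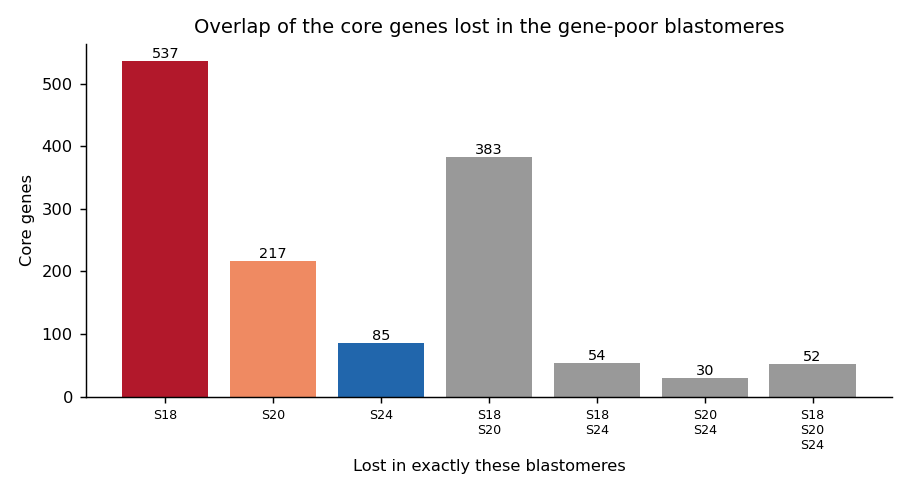
Number of core genes lost in exactly the named gene-poor blastomeres. Most genes lost in more than a single blastomere are those shared by S18 and S20 (383 genes), and 52 are lost in all 3.

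The 10 genes lost in all 3 with the highest level elsewhere were Tmem208, Hsd17b12, Saraf, Exosc4, Gemin7, Kctd13, Dnajb14, Tmx2, Mtx2 and Oip5. Tmem208, a membrane protein of the endoplasmic reticulum, stood at 0, 0 and 0.124 in S18, S20 and S24 against 33.2 to 170, and Saraf, a regulator of calcium entry, at 0 in all 3 against 13.1 to 125. Gemin7, of the SMN complex that builds spliceosomal particles, was at 0 in all 3 against 21.9 to 121. They are the most abundant of the 52, whose median level of 24.2 lies in the lowest quintile of core genes. Genes lost in S24 alone numbered 85. Hspa5, the main chaperone of the endoplasmic reticulum, was the most abundant of these (chosen after the values were known), at 0 in S24 but at 244 in S18 and 468 in S20, against 51.6 to 611.

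The log2 ratios of the core genes correlated with Pearson 0.34 and Spearman 0.38 between S18 and S20, and with 0.02 between S18 and S24 by both measures. These correlations run across 2714 genes that are not independent, and all 3 blastomeres are set against the same 21 others. Over all listed genes on the log2 scale, S18 correlated with the others at 0.51 to 0.62 and S20 at 0.60 to 0.69, whereas the others correlated among themselves at 0.71 to 0.90. S24 reached 0.71 to 0.79, which overlaps that range. S19 was the profile closest to S18 (0.62) and to S20 (0.69). S17, with 6944 genes above FPKM 1, was next and nearly as close to both, at 0.608 and 0.686. S18 and S20 correlated with each other at 0.59, the lowest value of S20 with any blastomere but rank 3 from the top for S18. S19 and S21, the nearest outside the limit, had also lost genes that the gene-poor blastomeres had lost. Of the 93 genes lost in S19, 76.3% were lost in S18, 74.2% in S20 and 22.6% in S24. Of all genes tested with S19 held out, 39.1%, 26.8% and 8.62% were lost. Of the 273 genes lost in S21, the shares were 64.8%, 54.6% and 29.3%. Of all genes tested with S21 held out, they were 40.3%, 27.8% and 10.1%.

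The 8-cell table holds 3 blastomeres under the same limit, S55, S57 and S58, with the lowest of the other 23 at 5106 genes. Over the 1943 genes that are core at both stages, the genes lost in S18 and S20 had median log2 ratios of 0.25, −0.41 and 0.11 in S55, S57 and S58, where all 1943 genes had −0.18, −0.28 and −0.13. By share lost, they were above the background in S55 and S57, with 8.86%, 25.3% and 8.44% against 5.25%, 15.4% and 8.23%. The 88 genes lost in S24 had medians of −1.09, −2.22 and −0.38 and lost shares of 10.2%, 37.5% and 17%. The genes raised in S18 and S20 had −0.83, −0.86 and −0.52. These sets were not matched by level to the 1943 genes. At the 4-cell stage, the protein-coding core genes lost in S24 had a median level of 24.8 in the others, against 64.5 for all protein-coding core genes. The part of level in the 8-cell values was not tested. The Spearman correlation of the ratios in S55, S57 and S58 with those of S18 was −0.29, −0.08 and −0.11. With S20 it was −0.30, −0.11 and −0.13, and with S24 0.07, 0.08 and 0.06. Among S55, S57 and S58 themselves it was 0.28 to 0.29. All 3 are set against the same 23 others, which can raise that correlation, and its value without any change was not estimated. The mitochondrial ribosome list, low in S18 and S20, summed to 9521, 8690 and 8552 in S55, S57 and S58 against 4717 to 9885 in the other 8-cell blastomeres, and the chromatin remodellers to 230, 371 and 203 against 308 to 717. The histone list was above the range in all 3, with 3039, 3160 and 3536 against 1621 to 2850, as it was in S24 at the 4-cell stage.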

How the data were processed

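Single blastomeres were amplified with Smart-seq2 and sequenced as Nextera XT libraries. Per the labels and methods, the authors aligned reads with STAR 2.5.1b to mm10, counted unique ones with HTSeq on Refseq genes and RepeatMasker copies, and deposited FPKM values per gene. The unit of the deposited repeat signal is not given in the sources used here, and 26 columns of an 8-cell repeat table were not used. No columns match single samples, so each stage is a group of blastomeres not assigned to embryos. FPKM values were divided by their column sum and multiplied by the median sum, 442005. Log2 ratios used a pseudocount of 1 and the median of the 21 others. Identifiers were matched to RefSeq of GRCm38.p6 (15200 of 15218), and exon lengths are unions over curated transcripts. The fragment number of each library was inferred on 8468 genes that have 1 curated transcript, as the most frequent denominator that a single fragment would give among the lowest 0.3 of the values. Per column, 90.0% to 96.0% of the estimated counts between 0.5 and 10 were within 0.1 of a whole number. Reads carry no molecular identifiers.

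The grouping rests on the values themselves and the blastomeres have no replicates, so no test was run and ranges are given. The members and gene lists were chosen with earlier results of these data known. Genes were named by fixed rules: core genes lost in all 3 gene-poor blastomeres (10 by level), genes higher in all 3 than in every other (10 core and 10 not core, by lowest log2 ratio), the 4 most abundant and the 2 lowest and 2 highest core members of each list, and stress, sex-linked and other-cell genes above 1 in all 3. Exceptions were chosen after seeing values: genes of the pair S18 and S20, of S24 alone and at full level, further single members of lists, and the genes in the 3′ windows. Functions were tested on simulated data. Python 3.11.15 with pandas, numpy, pysam and matplotlib was used. Alternatives covered thresholds, scalings, left-out blastomeres, pseudocount and repeat shares.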

Additional observations from a re-analysis of the deposited data

How the results depend on the processing

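S18 and S20 lost more core genes than S24 under every threshold and scaling tried, but the counts changed. S18 lost 732 at an exact 0 and 808 with a limit of 5, against 1026. S20 lost 462 and 492, against 682. The count of S24 fell as well. It was 134 at an exact 0, against 221. With a limit of 5 for both core genes and losses it was 144, and the part of each of these 2 changes was not tested. At an exact 0, 25 genes were lost in all 3 and 255 in S18 and S20. Leaving out a gene-poor blastomere gave 82 to 435 genes lost in all that remained, 234 to 819 lower and 61 to 475 higher than in every other blastomere, with S24 left out giving the highest of each. Leaving S21 out of the others, an alternative added after seeing the data, gave 81 genes lost in all 3 and 26 higher. Within 1.5-fold, 455 core genes in S18 and 695 in S20 were at full level. Without scaling, the median log2 ratio of the core genes went to −1.44 in S18 and −0.73 in S20, 18 lists in S18 and 7 in S20 had a median under −1, against 10 and 3, and the tRNA synthetase and Khdc1 lists (S18 and S20) and the nuclear pore list (S18) were no longer above the others, nor, in S18, the zinc finger, histone methylation, ribosome biogenesis and Oog lists, nor, in S20, the oocyte RNA regulators. Median of ratios scaling also returned the tRNA synthetase, nuclear pore and Khdc1 lists to the range. As shares of summed values, S20 over the median of the others was 1.66 for MERVL, 1.46 for MT-type MaLR and 0.823 for B1, S18 was 0.987 for B1 and S24 was 0.744 for IAP. Of 486 list medians recomputed, 386 moved by less than their spread over the other blastomeres, 100 by more, and none of those beyond 1 changed sign; the cause was not tested in any case. No paired analysis was possible because no column name gives an embryo or replicate, and every comparison rests on 3 blastomeres. The paper lists its blastomeres by embryo, and whether the columns follow that order was not tested. The part of depth in the losses was not tested, and an exact 0 can be a failed estimate as well as an absent message.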

Other observations

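S24 was inside the range of the others for 38 of the 44 gene lists, above it for 3 and below it for 3. How many lists each other blastomere would leave when held out was not counted. Translation factors (13474 against 10102 to 13155) and DNA replication genes (3658 against 2576 to 3649) were just above it. Zona and oocyte-secreted factors were below it, with 32.6 against 52.3 to 228. Core and linker histone genes summed to a scaled FPKM of 4675 in S24, above the 2223 to 3966 of the others, and to 2734 in S18 and 3195 in S20. Trophectoderm and compaction genes summed to 224 in S24, below the 306 to 1003 of the others, and imprinted genes to 24.9, below 39.9 to 227. Lamtor3, a scaffold of the lysosomal Ragulator complex, stood at 273 in S24 against 23.3 to 106 in the others and at 0 in S18 and S20.

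Xist, the RNA that coats the inactive X chromosome, stood at 11.5 in S20 and at 0 in S18 and S24, against 0 to 18.9 in the others.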
